A study of Drosophila melanogaster with 159 samples.

Results

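The genes described here were on average higher between 2.5 and 6.5 h of Drosophila embryogenesis than before and well after. They were chosen from their measured values: a gene was a member when its mean at 2.5 to 6.5 h after egg laying lay at least 1 log2 unit (2-fold) above its mean at 0 to 1.5 h and at least 1 log2 unit above its mean at 12 to 24 h. Of 3020 genes with a value in all 3 windows, 90 met the rule, 3 of these (18w, trn and Ama) were left out by name, and 87 were kept. The windows held 4 arrays (0 to 1.5 h), 13 arrays (2.5 to 6.5 h) and 24 arrays (12 to 24 h), so every value within those windows is a description and carries no test.

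The study measured RNA through the fly life cycle on 159 two-colour cDNA arrays, each hybridised with poly(A)+ RNA of whole animals and a common reference. There were 60 arrays of embryos in 30 overlapping 1 h collections, 24 of larvae timed from hatching (the oldest larvae below are those of 84 h and later), 35 of metamorphosis timed from the white prepupa, and 40 of adults of either sex. All animals came from the Canton S stock according to the labels, and 8 adult arrays (each sex at 0 to 24 h and at 5 d after eclosion, 2 arrays each) carry the name tudor in their titles. The other 32 adult arrays, called Canton S below, were of 0 to 24 h and of 3, 5, 10, 15, 20, 25 and 30 d after eclosion, 2 arrays for each sex and age. Of 80 groups, 79 had 2 arrays, and the labels do not say whether these came from separate animals. The p-values therefore measure spread between arrays, of which the part within a group may be technical. In tests that pool several ages of embryos, larvae or pupae, the spread also holds change between those ages, since age was not a term there. The tudor gene is needed by mothers to form germ cells in their offspring. The titles do not say whether the flies or their mothers lacked it, and the labels of these arrays still name Canton S.

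Each value is a log2 ratio of sample over reference, less the median of its array, and is called a log2 level below. A level of 0 is the middle of that array, 1 unit is 2-fold, and levels of different genes cannot be set against each other. The ratio was red over green. In 13 scan comments the red dye is named as the sample's, and for the other arrays that direction is likely but not stated. Arrays carried 6722 to 8547 values and their medians lay between -0.78 and 0.77 before centring. No depth applies to arrays, and their number limits the precision.

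Some arrays stood apart. These were replicate 1 of embryo 2 to 3 h, embryo 4 to 5 h, metamorphosis 12 h and metamorphosis 16 h. Across probes, they correlated with no array of another group outside these 4 above 0.25, 0.35, 0.05 and 0.08. Correlations with their own replicate 2 partners are not part of these values. None of the 4 entered a test, and the embryo 4 to 5 h array was not used to choose members. During metamorphosis, the 9 arrays numbered replicate 1 between 20 and 80 h, all on the slide set called A here, also differed from their replicate 2 partners. Of 2108 genes with every value there, 77 (3.65%) differed by over 1 log2 unit in the same direction in all 9 pairs, against 0 of 1759 in the 5 pairs at 2 to 10 h. CG8929, Sf3a2, TTLL4B and prd were among them: their replicate 1 less replicate 2 means were -6.02, -4.84, -2.73 and 1.83. Results on pupae are therefore given with and without these 9 arrays.

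**Figure D1:**
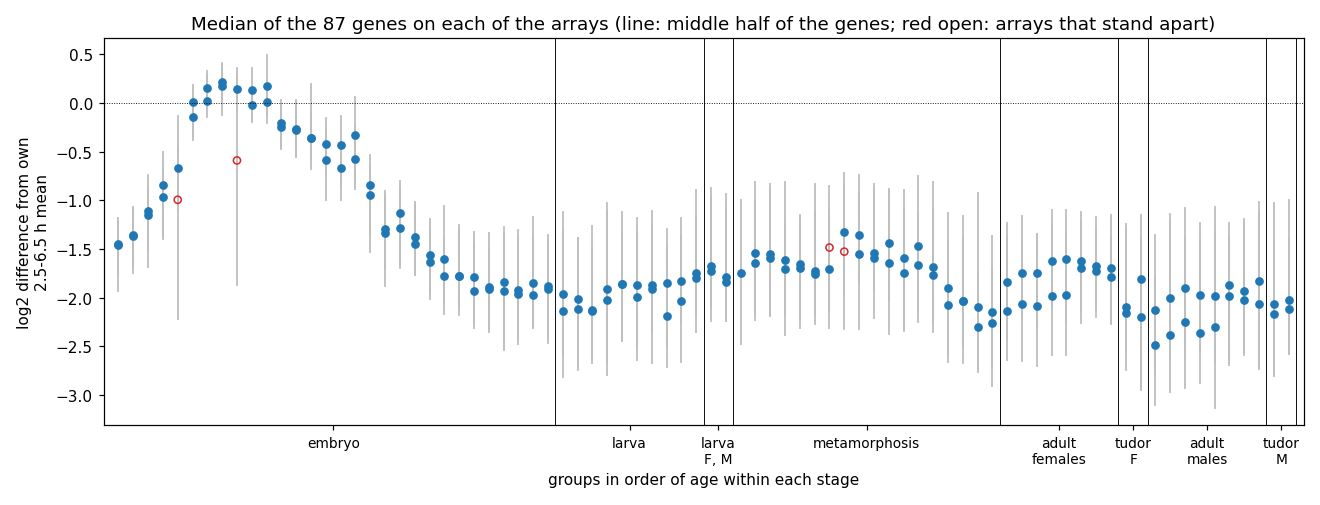
Median log2 level of the 87 genes on each array (vertical axis, log2, each gene relative to its own mean at 2.5 to 6.5 h) through the life cycle (horizontal axis, collections in order of age). Each point is 1 array, with a line from the lower to the upper quartile of the genes, and red open points mark the arrays that stood apart. The points lie between -0.25 and 0.21 at 2.5 to 6.5 h and from -1.97 to -1.13 at 12 to 24 h.

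The fly embryo starts with RNA that its mother laid down. Nuclei divide fast in a common cytoplasm, the embryo's own genes are switched on in force as cell membranes form around the nuclei, and maternal RNAs are cleared. Many of the genes first transcribed then act in segmentation, dorsoventral patterning and cell fate, and several are used only briefly before later programmes begin. In bulk RNA from whole embryos, fewer cells of a type and less RNA per cell cannot be told apart. On poly(A)+ RNA a longer tail on stored maternal RNA also cannot be told apart from new transcription.

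The members did not all start from a low level. At 0 to 1.5 h, 49 of the 87 had a mean above their array's middle and 38 a mean at or below it. At 2.5 to 6.5 h, 78 had a mean above it, and at 12 to 24 h 37 did. The label transient early zygotic genes therefore goes further than these values: they show a transient early rise, in many cases on top of RNA already present. The median rise over 0 to 1.5 h was 1.38 (range 1.00 to 4.08), and the median excess over 12 to 24 h was 1.67 (1.00 to 3.46). The smaller of these gaps was 1.00 to 1.02 for Ndf, flz, aurB, CG8929 and CG10376, just inside the rule. For sinu, CG13784, CG11842, CG8611 and p130CAS, just outside it, the smaller gap was 0.99 to 1.00. Among all 3020 genes, 449 rose by 1 or more from the early window and 601 lay 1 or more above the late one.

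Membership depended on centring. The array medians before centring averaged 0.45 at 0 to 1.5 h, 0.06 at 2.5 to 6.5 h and 0.04 at 12 to 24 h, so centring adds to every rise from the first window. Without centring 42 genes met the rule, all of them members, and after quantile normalization 51 did, of which 49 were members. Both alternatives kept 30 members. Without centring 7 of the 8 adhesion, membrane and transport genes were kept (all but Arl8), but 2 of the 10 splicing and RNA-processing genes and 1 of the 6 cell division genes. In Ebp, CG3700 and MFS16 the window at 2.5 to 6.5 h held only 4, 4 and 6 of 13 values. Ebp, an ejaculatory bulb protein, owed its place to 1 array: replicate 1 at 5.5 to 6.5 h read 0.86, and the other 3 values in the window were -4.13, -4.25 and -4.42.

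Most members first lay 1 log2 unit above their 0 to 1.5 h mean between 2 and 4 h. The rule favours that timing, and smaller rises before it are not counted here. The first collection in which every array used lay at least 1 above the 0 to 1.5 h mean was 2 to 3 h for 16 members (on 1 array, as at 4 to 5 h), 2.5 to 3.5 h for 44 and 3 to 4 h for 13. For 6 it was earlier, for 6 later, and for 2 no collection qualified. The highest collection mean of the embryo fell at 3.5 to 4.5 h for 22 members, at 4 to 5 h for 17, at 3 to 4 h for 13 and at 5 to 6 h for 11. It came in the collection of 6 to 7 h or later for 9 members, at 8 to 9 h in CG12744 and at 10 to 11 h in CG8929 and CG3700. On single arrays the median member lay 1.46 to 1.35 below its own peak window at 0 to 1.5 h and 1.15 to 0.66 below it at 1 to 3 h. It was back at 0.58 to 0.27 below by 6 to 9 h, at 0.95 to 0.33 below by 9 to 12 h, and at 1.97 to 1.13 below at 12 to 24 h.

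**Figure D2:**
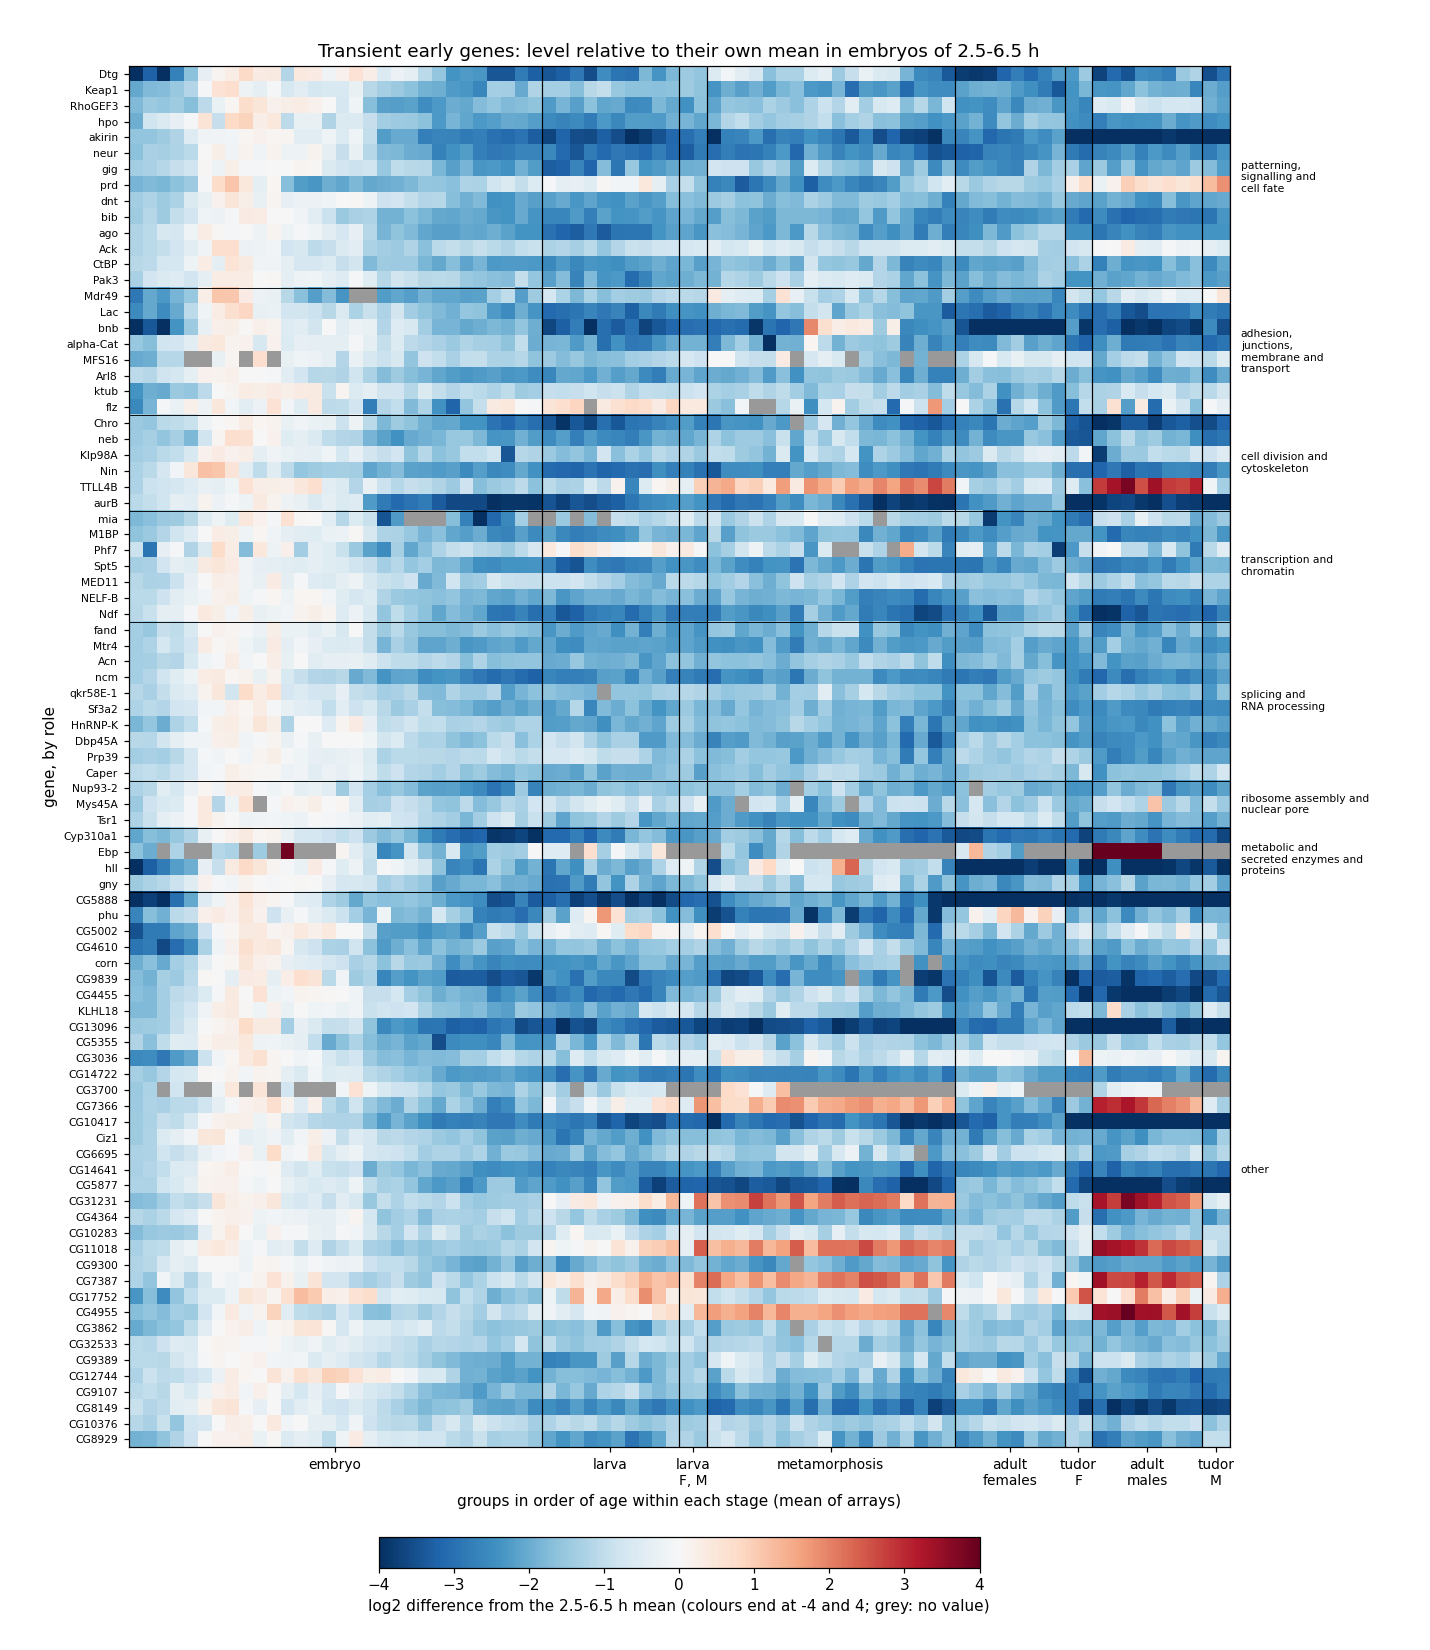
Log2 level of each of the 87 genes (rows) in each collection (columns, in order of age), relative to the gene's mean at 2.5 to 6.5 h, as the mean of the arrays of that collection. The 4 arrays that stood apart and the 9 pupal replicate 1 arrays were left out; the bright band lies at 2.5 to 6.5 h, and a small block of genes is brighter in adult males than in the embryo.

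The members with the widest swings were CG5888, Dtg and bnb. CG5888, an uncharacterised gene, read -2.14 and -2.16 at 0 to 1 h and -1.65 and -1.35 at 0.5 to 1.5 h. It read 1.68, 2.20 and 2.76 (lowest, median and highest of 13 arrays) at 2.5 to 6.5 h and -1.66, 0.02 and 0.77 (23 arrays) at 12 to 24 h. All peak arrays of CG5888 were above all early and all late arrays. Its collections climbed in steps, from -0.76 and -0.85 at 1.5 to 2.5 h to 1.68 and 1.74 at 2.5 to 3.5 h and 2.02 and 2.10 at 3 to 4 h.

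Dtg is named as a target gene of Dpp, the BMP signal that patterns the dorsal embryo. It read -2.73, -2.42, -1.38 and -1.23 on the 4 early arrays. Its peak arrays read -0.89, 2.19 and 2.71 (n = 13). The -0.89 was replicate 1 at 5.5 to 6.5 h, whose partner read 2.44, and the other 12 peak arrays were above 1.5. Dtg stayed high to 9 to 12 h, at 2.27 ± 0.20 (SD, n = 6), before it reached -0.05 ± 1.19 (n = 24) at 12 to 24 h. bnb (bangles and beads) read -3.07, -2.98, -1.85 and -1.40 early, then 1.10, 1.75 and 2.51 (n = 13), then -1.11, 0.34 and 1.58 (n = 24). Its late arrays overlapped its peak arrays, and its early arrays did not.

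Patterning, signalling and cell fate genes made up 14 of the 87. neur encodes the ubiquitin ligase that drives endocytosis of the Notch ligand Delta, which separates neural precursors from epidermis. It read 0.41, 0.25, 0.91 and 0.48 at 0 to 1.5 h, 1.60, 2.02 and 2.41 (n = 12) at 2.5 to 6.5 h, and -1.10, -0.43 and 0.47 (n = 23) at 12 to 24 h. neur thus started near the middle of the array, and its peak arrays stood clear of both other windows.

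prd, the pair-rule transcription factor paired, had the briefest course in this group. It read -0.72, -1.55, -0.68 and -1.39 at 0 to 1.5 h, 1.49 and 1.40 at 3 to 4 h, 2.13 and 1.54 at 3.5 to 4.5 h, and -0.77 and -1.22 at 5.5 to 6.5 h. The last arrays of its peak window were already as low as the first embryos, and its mean at 6 to 9 h was -1.45 ± 0.26 (n = 6).

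bib, a neurogenic membrane protein of the aquaporin family, went from 0.77 ± 0.21 (n = 4) to 2.06 ± 0.21 (n = 13) and then 0.02 ± 0.29 (n = 24). akirin, a nuclear cofactor of Twist-dependent and Relish-dependent transcription, went from -0.78 ± 0.07 to 0.79 ± 0.24 and then to -1.89 ± 0.56, with no overlap of its windows. Others of the group were hpo (the Hippo kinase), Keap1 (which holds back the stress factor CncC), gig (the Tsc2 growth inhibitor), ago (an F-box protein for Cyclin E), CtBP (a co-repressor), dnt (a Ryk-type receptor), Ack and Pak3 (kinases). Their peak means ran from 1.00 (Pak3) to 2.43 (gig).

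Of the genes of adhesion, junctions, membrane and transport (8 members), Lac, the septate junction protein Lachesin, read -0.86, -0.71, -0.30 and -0.27 early, 0.80, 1.69 and 2.90 (n = 12) at its peak, and -1.17, -0.07 and 1.05 (n = 24) late. Its early arrays lay below all its peak arrays, and its late arrays overlapped them. alpha-Cat, which ties cadherin junctions to actin, had means of -0.30 ± 0.38 (n = 4), 1.32 ± 0.56 (n = 13) and 0.05 ± 0.41 (n = 15). Mdr49, an ABC transporter known from germ cell migration, had values on only 2 early arrays, -1.80 and -0.99, and averaged 1.06 ± 0.77 (n = 10) at its peak. Arl8, a small GTPase of lysosome transport, started high at 1.19 ± 0.20 and reached 2.27 ± 0.23. MFS16 and ktub peaked at 1.54 and 0.93, and flz, a serine protease, averaged -0.94 in the peak window, below the array's middle. The flz collection means from 20 to 24 h were -0.57, -0.53, -0.91 and -1.04, so its level was near or above that value again before hatching.

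Cell division and cytoskeleton genes numbered 6, with early means from -1.67 (TTLL4B) to 1.44 (aurB). aurB encodes Aurora B, the kinase of the chromosomal passenger complex. It read 1.33, 1.42, 1.61 and 1.38 early, 2.05, 2.38 and 3.18 (n = 13) at its peak and -1.67, -1.17 and 0.09 (n = 24) late. The early arrays of aurB were all above its late arrays, so its rise came on top of an RNA already present. Chro, a chromodomain protein of the spindle matrix and interbands, averaged 0.71 ± 0.15, 2.21 ± 0.23 and -0.08 ± 0.59, and the kinesin neb 0.24 ± 0.28, 1.63 ± 0.53 and -0.38 ± 0.36. Nin and the kinesin Klp98A averaged 2.06 and 1.36 at the peak. TTLL4B, of the tubulin tyrosine ligase-like family, averaged only -0.63 ± 0.33 (n = 12) there.

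The splicing and RNA-processing genes numbered 10. Sf3a2, a subunit of the U2 snRNP, averaged 1.20 ± 0.33 early, 2.36 ± 0.28 at its peak and 0.60 ± 0.45 late. Prp39, a U1 snRNP protein, averaged 0.53 ± 0.14, 1.88 ± 0.24 and 0.83 ± 0.30. ncm, which carries the exon junction complex to the spliceosome, went from -0.20 ± 0.12 to 1.07 ± 0.36 and then to -1.56 ± 0.42. fand, Acn, HnRNP-K, Caper, Mtr4 (the exosome helicase), qkr58E-1 and the DEAD-box helicase Dbp45A peaked between 1.27 and 2.03. The median rise was 1.29 in this group, 1.06 for ribosome and nuclear pore genes, 1.26 for cell division, 1.31 for transcription, 1.41 for patterning, 1.85 for metabolic and secreted proteins and 2.14 for adhesion and membrane genes.

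Among 7 genes of transcription and chromatin were Spt5 and NELF-B, which together govern the pausing and release of RNA polymerase II, and M1BP, which binds promoters of paused genes. Spt5 rose from 0.71 ± 0.09 to 2.02 ± 0.41, NELF-B from 0.38 ± 0.26 to 1.45 ± 0.26 and M1BP from 0.43 ± 0.19 to 1.97 ± 0.27. MED11 (Mediator), Ndf, Phf7 (a germline chromatin reader) and mia (a testis form of a TFIID subunit) completed this group. mia, also on the list of testis markers, had only 2 early values and averaged 1.10 ± 0.59 (n = 12) at its peak. Of ribosome assembly and the nuclear pore, Tsr1, Mys45A and Nup93-2 peaked at 1.55, 0.38 and 1.67. Of 4 metabolic and secreted proteins, hll, an acyl-CoA synthetase, had the widest swing, from -2.45 ± 0.89 (n = 4) to 1.18 ± 0.63 (n = 13). The cytochrome P450 Cyp310a1 went from 0.44 ± 0.25 to 2.33 ± 0.26 and -0.59 ± 0.86, and gny peaked at 2.37 ± 0.17.

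The other 35 members have no role given here and include CG4455, CG4610, CG5002, corn, CG9839 and KLHL18. CG4610 read -0.77 to -1.65 on the 4 early arrays and 0.30, 1.80 and 2.26 at its peak. CG5002 read -3.11 to -1.53 early and 0.86 in the middle of its peak arrays. CG9839 and corn began near 0, at medians of -0.01 and 0.27, and reached medians of 1.98 and 2.11.

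**Figure D3:**
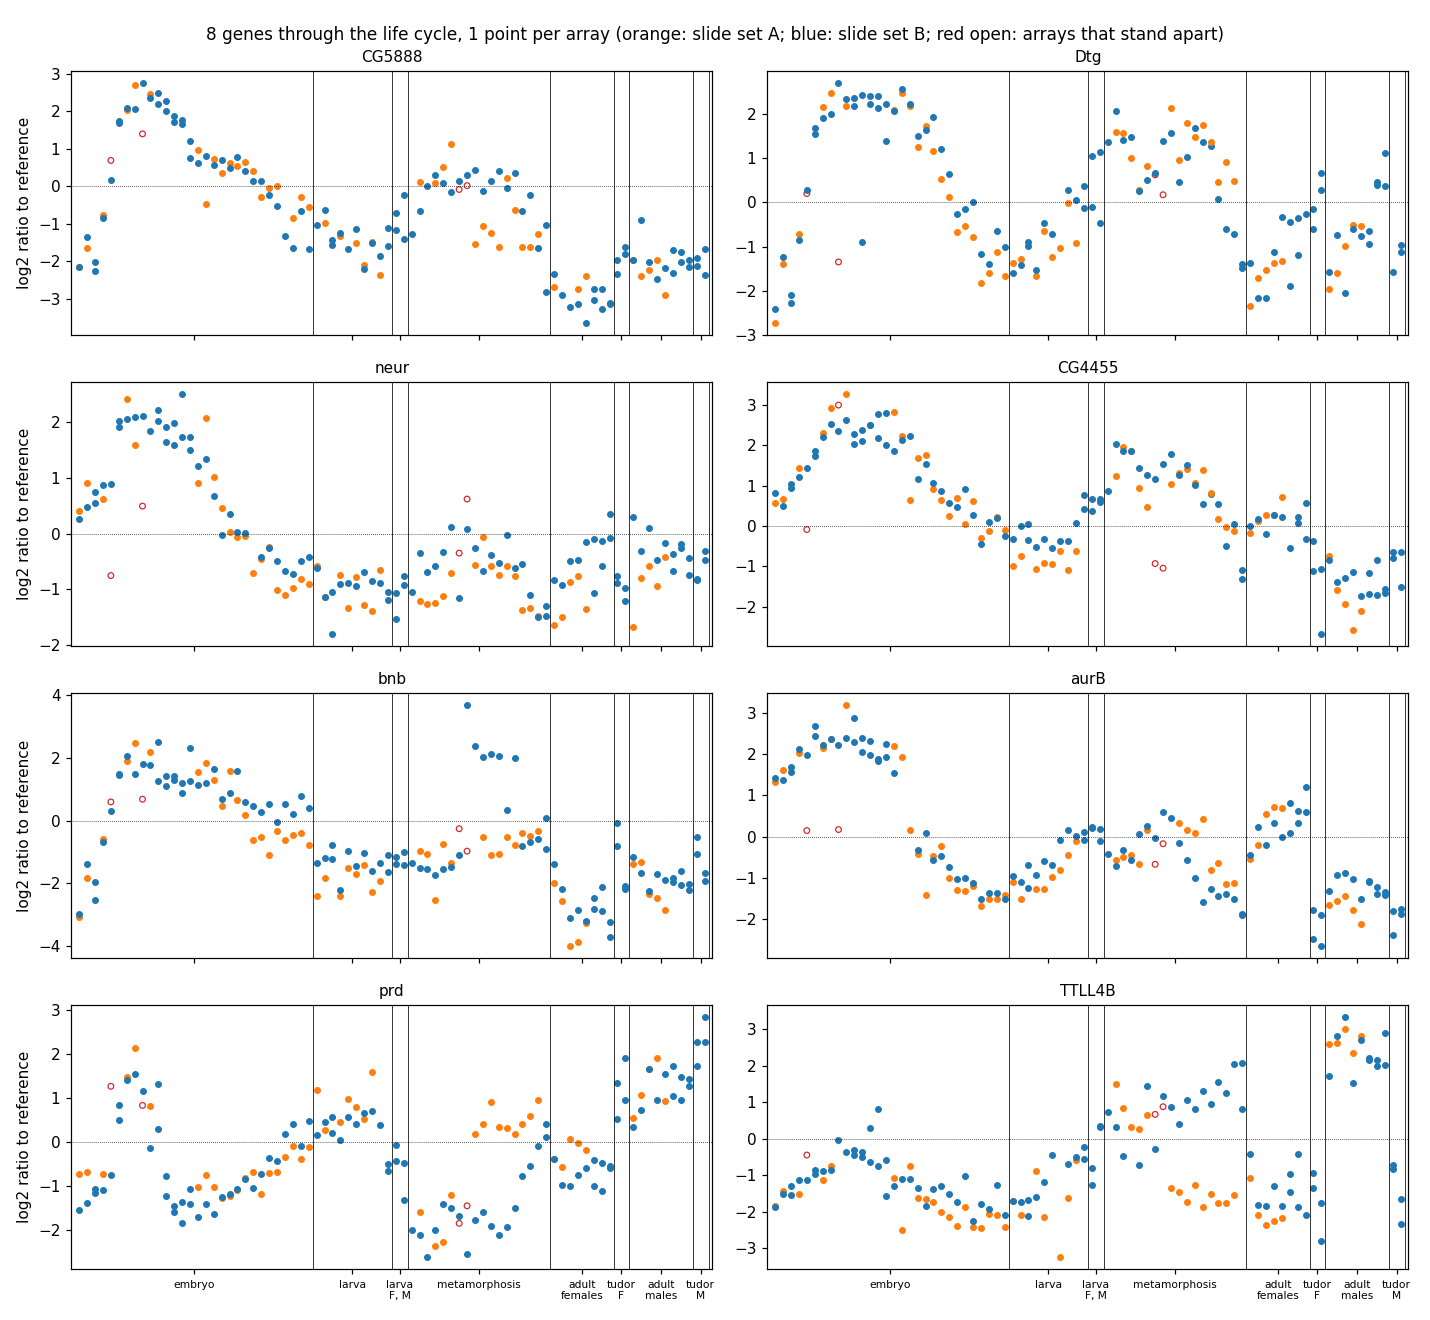
Log2 level (vertical axis, relative to the array median) of 8 members on every array through the life cycle (horizontal axis, collections in order of age). Each point is 1 array, orange for slide set A, blue for set B and red open for the arrays that stood apart; CG5888, Dtg and bnb start below -1 and pass 1.4 by 2.5 to 3.5 h, aurB starts above 1.3, and TTLL4B is higher in adult males than in the embryo.

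Few textbook early genes could be read. Of 55 genes read from the 9 lists of developmental and cell cycle genes, 4 were members, against 87 of all 3020 genes. They were prd (1 of 4 segmentation genes read), neur (1 of 5 of the Notch pathway), alpha-Cat (1 of 12 of adhesion) and aurB (1 of 10 of the cell cycle). Another of the 12 adhesion genes, trn, met the rule but was left out by name, which lowers these counts. At 2.5 to 6.5 h, 3 of 7 dorsoventral genes and 6 of 12 adhesion genes stood 1 or more above 0 to 1.5 h, and 0 of those 7 and 5 of those 12, counted separately, stood 1 or more above 12 to 24 h. Conversely 7 of 10 cell cycle genes and 4 of 4 segmentation genes stood 1 or more above 12 to 24 h, with 1 of each above the first window. No member was among the muscle (7 read), neuron (7), ovary (4) or cuticle markers (5), and 1 of 10 testis markers was (mia).

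The members lay on all large chromosome arms: 25 on 2L (28.7% of members, against 17.3% of all genes read), 20 on 2R (23%, against 22.1%), 15 on 3L, 20 on 3R and 6 on X (6.9%, against 15.4%). In all, 5 pairs lay within 3 genes of each other in the reference annotation: bib and Ndf, CG4455 and CG5888, ncm and CG10283, CG7387 and CG7366, and phu and CG8149. No test was made of these shares.

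Between 6 to 9 h and 9 to 12 h, hours the rule did not use, the members declined on average but no single decline passed the test. The median difference over 80 members tested was -0.38, against -0.01 over all 6902 probes, and 73 of 80 differences were below 0. With limma and Benjamini-Hochberg adjustment over all probes, 0 members and 0% of probes passed at 0.05. At an unadjusted p under 0.05, 21 members and 1236 probes passed, and all 21 members were lower at 9 to 12 h. The largest differences were those of flz (-1.48, adjusted p = 0.145), RhoGEF3 (-1.09, adjusted p = 0.147) and phu (-1.08, adjusted p = 0.141). Without a term for slide set in the fit, 10 members were called lower. Choosing genes that are low by 12 h also selects for genes that fall in the hours before.

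**Figure D4:**
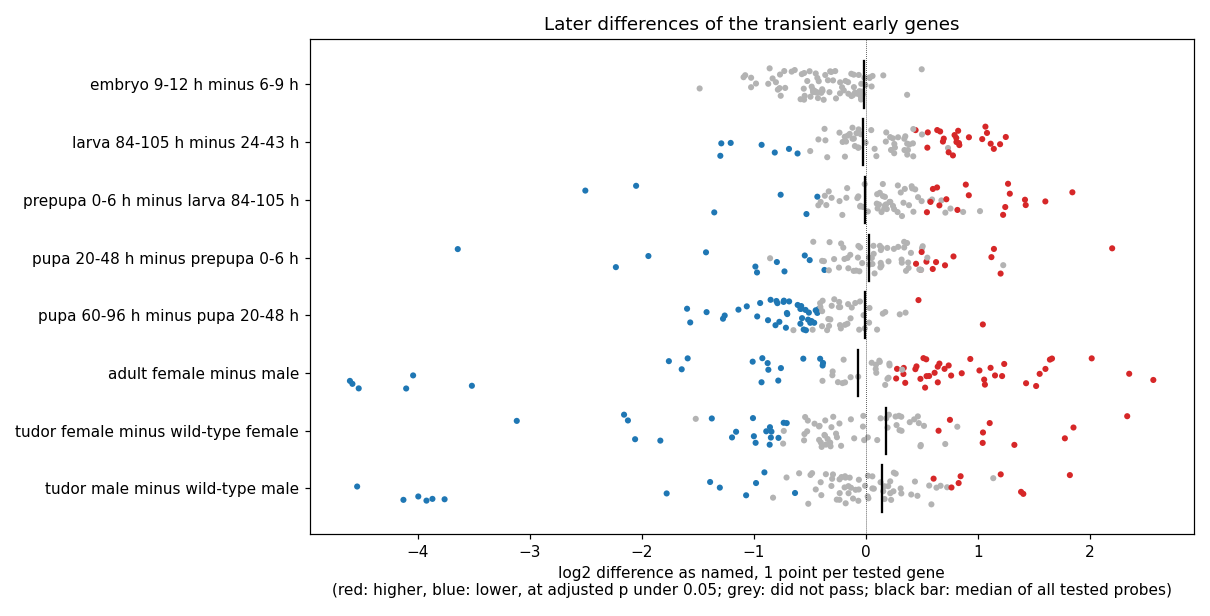
Log2 difference (horizontal axis) of each tested member in each of the 8 comparisons outside the rule's windows (rows), with members called higher in red, called lower in blue (limma adjusted p under 0.05) and not called in grey, and a black bar at the median of all tested probes. The members' median was -0.44 between pupae of 20 to 48 h and of 60 to 96 h, and the widest differences, beyond 4 in size, lay between adult sexes and between tudor and Canton S males.

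After hatching, most members stayed below their embryonic level. In 9 later windows, 44 of the 87 lay more than 1 log2 unit below their peak mean throughout, 43 came within 1 unit of it in some window and 15 exceeded it. Members were chosen for a high mean at 2.5 to 6.5 h, which favours lower levels in other windows. These counts, and those of the best later windows, were not made over all genes. The genes farthest below at their best later window were CG10417 (-2.72), akirin (-2.60), CG13096 (-2.60), neur (-2.46) and CG8149 (-2.36). The best later window was 20 to 48 h of metamorphosis for 19 members, adult females for 17, the prepupa for 14 and adult males for 12. It was 60 to 96 h of metamorphosis for none, and this held without centring and without the 9 pupal replicate 1 arrays. Males held the widest excesses, in CG4955 (3.29 above its embryonic mean), TTLL4B (3.06), CG31231 (2.86), CG11018 (2.82), CG7387 (2.78) and CG7366 (2.40). Ebp lay 7.88 above, on 5 male arrays that read 4.02 to 6.39. CG17752 lay 1.08 above in the oldest larvae. The others above their embryonic mean in some later window were flz (0.68), Phf7 (0.67), prd (0.48), CG3700 (0.42), CG5002 (0.34), phu (0.28) and CG3036 (0.17). Without the 9 pupal replicate 1 arrays, 17 members exceeded it. Phf7 then lay 0.23 above, and bnb (0.06) and hll (0.09) were added. The 6 male genes and Ebp all peaked below the array's middle in the embryo, for example CG4955 at -0.76 ± 0.57 (n = 13).

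During larval growth, 23 members were higher and 7 lower in the oldest larvae (84 h and later) than at 24 to 43 h, of 76 tested. Over all probes 13.9% were higher and 17.2% lower, so the share of members higher was above the background and the share lower was below it. The members' median difference was 0.25, against -0.02 over all probes. hll read -1.87, -1.29 and -0.85 (n = 6) in young larvae and -1.16, -0.04 and 1.29 (n = 6) in old ones, with some overlap. Its difference was 1.25 (SE 0.33, 2.38-fold, limma adjusted p = 0.012). Dtg read -1.61, -1.32 and -0.90, then -0.93, 0.02 and 0.37, with a slight overlap. Its difference was 1.20 (SE 0.20, limma adjusted p = 9.46e-04).

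aurB did not overlap between young larvae (-1.52, -1.09 and -0.69) and old larvae (-0.45, -0.03 and 0.15), and rose by 1.04 (SE 0.15, limma adjusted p = 3.35e-04). Of the cell division group 3 of 6 rose, and of the fixed cell cycle list 5 of 10 rose. TTLL4B (1.14), CG11018 (1.08), CG7366 (1.07), CG31231 (0.83), CG7387 (0.83) and CG4955 (0.81), the genes high in adult males, all rose here as well. Of the testis markers, 7 of 9 rose between the same larvae; the part of that change in the result was not tested. Of metabolic members 3 of 3 rose (Cyp310a1 by 1.11, gny by 0.79, hll).

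The splicing and RNA-processing group gained no gene in old larvae and lost 2 of 10. Dbp45A read 0.10, 0.55 and 0.91 in young larvae and -1.18, -0.89 and -0.46 in old ones, without overlap. It fell by 1.30 (SE 0.15, limma adjusted p = 8.2e-05). Prp39 fell by 0.93 on its chosen probe, while its other probe differed by 0.04 (limma adjusted p = 0.866). CG5877 (-1.29), CG4364 (-1.21), MED11 (-0.81), CG10417 (-0.69) and CG10283 (-0.61) completed the genes that fell. Without centring 9 members were higher, and without replicate 2 of larvae at 33 h 15 were. The shares of all probes under these settings are not given here, so the excess of higher members over the background is stated for the main fit only.

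At the onset of metamorphosis, 17 members were higher and 6 lower in prepupae of 0 to 6 h than in the oldest larvae, of 77 tested (16% of probes higher, 17.7% lower). The share of members higher was thus above, and the share lower under, the background. CG4455 read -1.08, -0.15 and 0.76 (n = 6) in larvae and 0.87, 1.85 and 2.02 (n = 7) in prepupae, without overlap. It rose by 1.84 (SE 0.27, 3.59-fold, limma adjusted p = 1.86e-04). Dtg rose again, from -0.93, 0.02 and 0.37 to 1.02, 1.49 and 2.07, without overlap (difference 1.60, SE 0.21, 3.04-fold, limma adjusted p = 4.93e-05). That brought Dtg to 1.51 ± 0.31 (n = 7), within 1 unit of its embryonic mean.

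gig rose by 1.43 (SE 0.17, limma adjusted p = 4.16e-05) from larvae at -0.32, 0.24 and 0.61 to prepupae at 0.90, 1.49 and 2.19, without overlap. CG5888, from -1.55 to 0.06 in median, rose by 1.42 (limma adjusted p = 0.00225). Of patterning members 6 of 14 rose (also Pak3 0.92, hpo 0.82, ago 0.64 and dnt 0.60), and of adhesion and membrane members 3 of 6 (Mdr49 0.89, MFS16 0.72, Lac 0.66).

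prd went the other way. It read -0.67, 0.37 and 1.58 (n = 5) in old larvae and -2.61, -2.06 and -1.58 (n = 6) in prepupae, without overlap. It fell by 2.51 (SE 0.32, 5.68-fold, limma adjusted p = 1.06e-04). CG17752 fell by 2.05 (SE 0.34, 4.15-fold, limma adjusted p = 5.92e-04), from 0.07, 1.71 and 2.58 to -0.73, -0.36 and -0.12. phu fell by 1.35 and CG9839 by 0.76. Both lost the call after quantile normalization (-0.60 and -0.34, limma adjusted p = 0.248 and 0.348). CG9839 also lost it without centring (-0.32, limma adjusted p = 0.452). Without centring 36 members were higher, and the median of all probes was then 0.37. Of the muscle markers 7 of 7 were lower in prepupae, with a median of -2.36; their part in the result was not tested.

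Between prepupae and pupae of 20 to 48 h, fewer members were called without the 9 pupal replicate 1 arrays, in a fit that also held fewer arrays. Of 76 members tested 12 were higher and 11 lower in pupae (16.1% and 16.4% of probes, shares close to those of the members), and without the 9 replicate 1 arrays 5 were higher and 2 lower. bnb read -2.54 to -0.96 (n = 7) in prepupae. In pupae of 20 to 48 h its 6 replicate 2 arrays read from 0.35 to 2.39 and its 5 replicate 1 arrays from -1.10 to -0.52. The difference was 2.20 (SE 0.39, limma adjusted p = 3.46e-04) over all arrays and 3.35 (limma adjusted p = 8.9e-05) without the 9. On the replicate 2 arrays alone bnb averaged 1.82 ± 0.74 (n = 6), level with its embryonic mean of 1.76.

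The other calls without the 9 arrays were RhoGEF3 (0.97 higher), CG11018 (1.05), CG3862 (0.80) and Acn (0.54), and, lower, CG5002 (-1.73, limma adjusted p = 0.0228) and Mdr49 (-1.12, limma adjusted p = 0.00643). Of these, bnb, CG11018 and CG5002 were also called over all arrays. CG8929 and Sf3a2, called lower by 3.64 and 2.23 over all arrays, had adjusted p of 0.284 and 0.519 without the 9, and prd, called higher by 1.14, had 0.257. CG3036, an uncharacterised gene, was lower by 1.94 over all arrays (limma adjusted p = 5.87e-04) and missed the threshold without the 9 (0.062). CG9839 rose over all arrays by 1.12 (SE 0.19, limma adjusted p = 3.45e-04), with no overlap between -2.39 to -1.10 in prepupae and -0.92 to -0.16 in pupae. CG9839 had too few values to be tested without the 9. The chosen probe of ncm was higher by 1.20 and its other probe by 0.38 (limma adjusted p = 0.159). Without the 9 arrays the chosen probe was higher by 0.53 (limma adjusted p = 0.13).

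As the pupa matured the members fell. Of 76 tested, 38 (50%) were lower and 2 higher at 60 to 96 h than at 20 to 48 h, against 18.9% and 21% of all probes, and the members' median was -0.44 against 0.00. Without the 9 arrays 33 of 82 were lower and 1 higher. Dtg read 0.47, 1.43 and 2.14 (n = 12) in younger pupae and -1.48, -0.26 and 0.92 (n = 8) in older ones, with overlap. It fell by 1.60 (SE 0.23, 3.02-fold, limma adjusted p = 2.45e-05), and by 2.06 without the 9 arrays (adjusted p = 3.34e-04). CG4455 fell by 1.42 (SE 0.21, limma adjusted p = 3.43e-05) from 0.55, 1.16 and 1.77 to -1.32, -0.08 and 0.55. Cyp310a1 fell by 1.28 (SE 0.25, limma adjusted p = 4.75e-04) from -0.33, 0.32 and 1.82 to -1.22, -0.67 and -0.52, without overlap.

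All 3 metabolic members tested fell, as did 4 of 5 cell division members (among them aurB by 0.97 and Chro by 1.14), 5 of 10 splicing members and 5 of 12 patterning members. neur fell by 0.80 (SE 0.14, limma adjusted p = 1.52e-04), and of the fixed Notch list 4 of 4 fell. hll fell by 1.57 and CG5888 by 1.06. bnb fell by 1.26 over all arrays, and its difference was -2.40 without the 9 (limma adjusted p = 2.28e-04) and -1.14 without the slide set term (limma adjusted p = 0.084). prd rose by 1.04 (SE 0.21, limma adjusted p = 6.19e-04), but lost the call without the slide set term (0.84, limma adjusted p = 0.137). Without the 9 arrays prd rose by 1.62. CG4955 rose by 0.47 (limma adjusted p = 0.0301) and lost the call without them (0.111). The chosen probe of Arl8 fell by 0.70, while its other probe was higher by 0.95. Muscle markers rose in 6 of 7 cases, from array medians of -3.17, -2.84 and -0.53 to 0.04, 1.28 and 2.41, and neuron markers in 5 of 6. Their part in the result was not tested.

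In adult Canton S flies the members divided by sex. Of 79 tested, 38 were higher in females and 20 higher in males, against 34.1% and 39.9% of all probes. Most genes on the array thus differed between the sexes, and the members' shares were above the background for females and under it for males. The members' median was 0.21 towards females, against -0.07 over all probes. Of the members kept by the rule without centring, 38 were tested in the same fit. Of these, 13 (34.2%) were higher in females and 14 (36.8%) in males, with a median of -0.10, close to the background. The lean towards females was thus not seen in the members that do not depend on centring. The 6 widest differences were all towards males, in genes that had peaked low in the embryo. CG4955 read 1.66, 2.49 and 3.60 (n = 16) in males and -2.77, -2.12 and -1.39 in females, without overlap. It was higher in males by 4.59 (SE 0.14, 24.0-fold, limma adjusted p = 1.61e-22).

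CG31231 read 0.29, 1.78 and 2.70 in males (n = 16) and -4.64, -2.88 and -2.03 in females (n = 15), 24.4-fold apart. CG7366 was 23.1-fold apart, CG11018 17.2-fold and TTLL4B 16.5-fold, each without overlap. CG7387, named after its values were seen, was 11.5-fold apart and lies near CG7366. Of the testis markers, 9 of 9 were higher in males, with array medians of 1.75, 2.62 and 3.56 in males and -2.31, -1.36 and -0.92 in females. Their part in the result was not tested.

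prd, which is also required for the male accessory gland, read 0.34, 1.16 and 1.91 in males and -1.12, -0.55 and 0.06 in females, without overlap. It was 3.39-fold higher in males (log2 difference 1.76 in size, SE 0.13, limma adjusted p = 6.72e-13). In males it thus stood above its embryonic mean of 0.72 ± 0.97. RhoGEF3 read 0.38, 0.80 and 1.52 in males and -1.23, -0.83 and -0.04 in females, without overlap, a female less male difference of -1.64 (SE 0.11, limma adjusted p = 1.29e-13). Mdr49 differed by -1.59. CG5888, Dtg and bnb, the genes of the widest embryonic swing, differed by -0.87, -0.56 and -0.92.

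Towards females the widest difference was that of CG5877, with -2.73, -1.71 and -0.82 in males and 0.01, 0.99 and 1.62 in females, without overlap (2.57, SE 0.13, 5.93-fold, limma adjusted p = 1.09e-16). CG12744 read -2.02, -1.37 and -0.55 in males and -0.87, 1.28 and 2.31 in females, with overlap, a difference of 2.35 (SE 0.21, limma adjusted p = 5.61e-11). aurB read -2.11, -1.38 and -0.89 in males and -0.54, 0.33 and 1.20 in females, without overlap (1.66, SE 0.14, limma adjusted p = 5.1e-12). Its female level stayed under its embryonic 2.44.

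phu (2.02), CG13096 (1.64), CG4455 (1.60), akirin (1.52) and Chro (1.43) were also higher in females. Of the splicing and RNA-processing members 5 of 9 were higher in females and 0 lower (Prp39 1.06, Dbp45A 0.93, Sf3a2 0.86, ncm 0.51, fand 0.49). Cell division members were higher in 4 of 6 cases and lower in 2 (TTLL4B and neb). Of the ovary markers 3 of 4 were higher in females, with array medians of 0.79, 1.66 and 2.62 against -1.74, -0.59 and 0.21 in males, and of the fixed cell cycle list 7 of 10. The muscle (7 of 7) and cuticle markers (5 of 5) were lower in females. Their part in the result was not tested.

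The tudor females differed from Canton S females in 28 of 81 members, 9 higher and 19 lower, against 24.2% and 13.6% of all probes. Members were thus lower at a share of probes above the background and higher at a share under it (median -0.31, against 0.18 over all probes). Of the members kept by the rule without centring, 39 were tested in the same fit. Of these, 9 (23.1%) were higher and 5 (12.8%) lower, close to the background, with a median of -0.02. The excess of lower members was thus not seen in the members that do not depend on centring. CG12744 read -0.87, -1.90, -2.68 and -1.73 on the 4 tudor arrays. It was lower by 3.12 (SE 0.43, limma adjusted p = 3.94e-06), and its tudor values fell in or below the range of Canton S males. CG13096 read -1.34, -2.09, -1.70 and -2.12 and was lower by 2.16 (SE 0.29, limma adjusted p = 4.04e-06).

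aurB read -1.78, -2.48, -2.64 and -1.90, all below every Canton S female array, and was lower by 2.12 (SE 0.28, limma adjusted p = 1.57e-06). CG5877 read -0.57, -0.90, -1.06 and -1.46, also below every Canton S female array, and was lower by 2.06 (SE 0.27, limma adjusted p = 1.71e-06). Of the cell division members 4 of 6 were lower (aurB, Chro 1.00, Nin 0.98 and neb 0.89 in size), as were 6 of 10 of the fixed cell cycle list. akirin was lower by 1.84, and CG4455 by 1.38 (limma adjusted p = 0.00323).

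Higher in tudor females were CG17752 (1.40, 1.76, 3.14 and 2.94 on the 4 arrays, difference 2.33, SE 0.36, limma adjusted p = 2.02e-05) and Dtg (-0.14, -0.59, 0.28 and 0.67, difference 1.85, SE 0.34, limma adjusted p = 1.41e-04). prd read 1.34, 0.52, 0.94 and 1.90, above every Canton S female array, a difference of 1.78 (SE 0.29, limma adjusted p = 2.84e-05). Mdr49 was higher by 1.33 (SE 0.24, limma adjusted p = 1.14e-04). Of the ovary markers 3 of 4 were lower in tudor females (array medians -2.42 to -0.87), and 5 of 7 muscle and 5 of 5 cuticle markers were higher. The muscle array medians were 0.11, 1.25 and 2.43 on the 4 tudor arrays, of 0 to 24 h and 5 d. Over the 16 Canton S female arrays of all ages they were -2.63, -1.43 and 0.68, so ages were not matched in these medians. The part of these markers in the result was not tested.

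In tudor males 13 of 81 members were lower than in Canton S males and 8 higher, against 12.2% and 10.5% of all probes, shares near those of the members. The 6 genes high in adult males all fell. CG4955 read -1.82, -1.51, -1.49 and -1.20 on the tudor arrays, below every Canton S male array, and was lower by 4.54 (SE 0.29, limma adjusted p = 4.01e-13). TTLL4B read -0.72, -0.83, -2.35 and -1.64 and was lower by 4.13 (SE 0.39, limma adjusted p = 2.76e-09). CG11018 read -1.83, -1.15, -2.15 and -1.64 and was lower by 4.00 (SE 0.36, limma adjusted p = 7.7e-10).

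The tudor less Canton S difference was -3.92 for CG7366 (limma adjusted p = 1.64e-05), -3.87 for CG31231 (limma adjusted p = 2.99e-09) and -3.76 for CG7387 (limma adjusted p = 1.93e-08). Of the testis markers 9 of 9 were lower in tudor males, with array medians of -0.95 to -0.47; their part in the result was not tested. RhoGEF3 was lower by 1.78 (SE 0.22, limma adjusted p = 2.5e-07) at -0.67, -0.26, -0.83 and -0.51, and neb by 1.39.

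prd did not follow the 6 genes highest in males. It read 1.74, 2.26, 2.28 and 2.84 in tudor males and was higher by 1.41 (SE 0.29, limma adjusted p = 5.68e-04). Klp98A was higher by 1.82 (SE 0.38, limma adjusted p = 8.12e-04), with 0.32, 0.76, 0.90 and 0.77 on the tudor arrays. Mdr49 was higher by 1.20 (SE 0.24, limma adjusted p = 4.6e-04) and CG8929 by 1.39 (limma adjusted p = 9.94e-04). Tested as an interaction, the tudor effect differed between the sexes in 22 of 81 members (27.2%, against 21.6% of all probes).

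**Figure D5:**
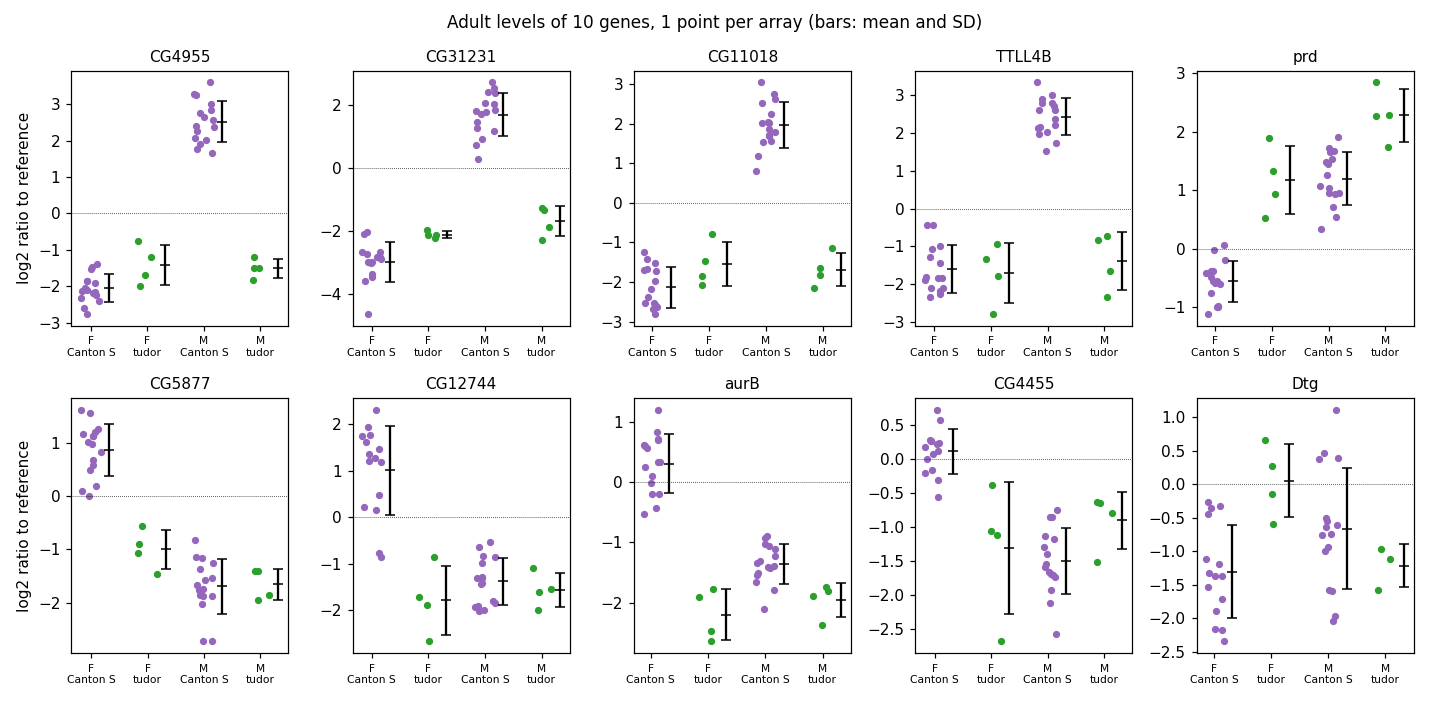
Log2 level (vertical axis, relative to the array median) of 10 members on each adult array, for Canton S females and males and tudor females and males (horizontal axis). Each point is 1 array and the bars are group means and SDs; CG4955, CG31231, CG11018 and TTLL4B lie above 0 only in Canton S males, prd lies highest in tudor males, and aurB lies highest in Canton S females.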

How the data were processed

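The values are log2 ratios of sample over common reference (red over green), deposited by the authors as 1 value a probe and array. How the spots were filtered and normalized is not given in the sources used here. Of 12588 probes, 4137 had 1 gene in the platform annotation, 159 several and 8292 none. Each of 3046 genes was read from its probe with the most values. The 252 values above 16 were set missing, and the median of each array was subtracted.

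The members, gene lists and role groups were chosen with earlier results of these data known. Comparisons outside the rule's windows used limma 3.58.1 in R 4.3.3 (two-sided) on all probes with values on at least 80% of the arrays, with slide set as a term and, for adults, age. Sex was compared over all Canton S ages; the tudor effects were fitted in each sex over matched ages. Adjustment was by Benjamini-Hochberg over all tested probes, with calls at 0.05. The fits were tested on simulated data.

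The rule for named genes took all members on a fixed list, the 20 with the largest smaller gap, the 4 largest called increases and decreases of each comparison, and the 5 highest after hatching relative to the embryo; it gave 43 names, and others were named after their values were seen. Values in sentences of 3 are the lowest, the median and the highest array. The alternatives were quantile normalization, no centring, looser and stricter limits on missing values, no slide set term, slide set B (102 of 159 arrays) alone, averaged probes, replicate blocks and leaving out arrays. Those for reuse after hatching were chosen after seeing the data. Promoter motifs were not analysed here.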

Additional observations from a re-analysis of the deposited data

Results flagged for a closer look

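The effect of tudor differed between the sexes, as tested by the interaction term of the limma fit, in 15 of the named members. The values below are the log2 tudor effect in females less that in males.

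It was positive for CG4955 (5.02), CG31231 (4.58), CG11018 (4.52), CG7366 (4.41) and TTLL4B (3.77), the genes that were high in Canton S males and fell in tudor males. It was also positive for CG17752 (1.70) and Dtg (1.54), which were higher in tudor females. For RhoGEF3 (1.65) and gig (1.21), the decrease in tudor males was the larger effect.

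The difference was negative for CG12744 (-2.67), CG5877 (-1.83), CG4455 (-1.59), aurB (-1.42) and CG13096 (-1.33), which were lower in tudor females. It was negative as well for Klp98A (-1.64), which was higher in tudor males. prd rose in tudor flies of each sex and is not among these genes.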

How the results depend on the processing

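The number of members was 42 without centring, 51 after quantile normalization and 22 with a margin of 1.5, and 93 to 111 with 1 replicate number left out. In embryos, 10 members were called lower without the slide set term. In larvae 9 were called higher without centring and 4 lower on slide set B alone. In prepupae the higher calls numbered 36 without centring, 10 on probes with values on every array and 8 on set B. The lower calls there numbered 3 without centring, after quantile normalization and on set B. In pupae of 20 to 48 h, 4 were higher with values on every array and on set B, and 5 without the 9 replicate 1 arrays; 4, 3 and 2 were lower. At 60 to 96 h, 1 was higher without centring, after quantile normalization, with values on every array, on set B and without the 9 arrays, and 0 without the slide set term. With values on every array, 23 and 9 members were called higher and lower in adult females, 10 lower in tudor females and 8 lower in tudor males; set B gave 5 higher in tudor males.

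Leaving out 1 array gave 0 calls in embryos, 15 to 28 higher and 6 to 7 lower in larvae, 14 to 20 and 4 to 7 in prepupae, 7 to 15 and 9 to 11 at 20 to 48 h, and 1 to 2 and 33 to 38 at 60 to 96 h. It gave 37 to 40 and 19 to 21 between adult sexes, 6 to 9 and 17 to 20 in tudor females, and 7 to 9 and 10 to 14 in tudor males. The low ends 15, 7 and 1 came without replicate 2 of larvae at 33 h, without replicate 1 at 4 h of metamorphosis, and without replicate 1 at 72 h or at 80 h. With replicate number as a block, the counts were 25 and 7 in larvae, 18 and 6, 9 and 11, and 2 and 35 in metamorphosis, and 37 and 20 between adult sexes. Correlations of same-numbered arrays' deviations had medians from 0.01 to 0.44 and lowest values from -0.38 to -0.06 over the comparisons, so the numbers were not taken as pairs. Of 127 calls on named members none changed direction, 21 were lost without centring, 30 on set B and 27 when some single array was left out. Reuse after hatching ranged from 38 to 52 members within 1 unit. The cause of these changes was not tested. Shares over all probes are given in this text for the main fits only. The counts under other settings therefore cannot be set against a background.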

Other observations

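The oldest larvae were also collected by sex, with 2 arrays each, and these arrays entered no comparison above. CG11018 read -1.37 and -0.99 in female larvae and 2.13 and 0.95 in male larvae. CG31231 read -1.60 and -1.08 in females and 0.90 and 1.10 in males. Both were thus higher on each male array than on each female array before metamorphosis. hll read 1.57 and 0.45 in females and 0.83 and -0.85 in males, which overlapped. No test was made with 2 arrays a sex.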
